A study of Mus musculus with 4 samples.

Results

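The serum amyloid A genes Saa1, Saa2 and Saa3, with Lcn2, Ltf, Hp and Fgg, are 7 genes of secreted proteins linked to the acute phase response, and they were read here on the 4 arrays of a study of mouse mammary tumours. The members were taken by name from the platform table as every probe set that carries 1 of these symbols, which gave 7 of the 12393 genes measured. They were chosen by name, and partly selected on the large signal differences of Saa1 and Saa3 between these same arrays, so their values below are a description and carry no test. All tumours arose in nulliparous female FVB mice given 15 mg of the progestin MP (Depo-Provera) under the skin and then 4 weekly oral doses of 1 mg of the carcinogen DMBA. The groups were MMTV-PAX8PPARg mice with RU486, MMTV-PAX8PPARg mice with placebo, wild-type (WT) littermates with RU486 and WT littermates with placebo. RU486, or mifepristone, blocks the receptors of progesterone and of glucocorticoids. It was released from a 2.5 mg pellet over 60 days, first implanted 1 day after DMBA dosing ended and once more after 60 days. The transgene expresses a fusion of PAX8 and PPARg from the MMTV promoter, which is active in mammary epithelium among other tissues. Each group was 1 Affymetrix array of RNA pooled from 5 mice, so the spread between mice is unknown and no difference between arrays could be tested.

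Acute phase proteins are made in large amounts by hepatocytes when interleukin-1, interleukin-6 and tumour necrosis factor reach the liver, through the transcription factors NF-kappaB, STAT3 and C/EBP, and glucocorticoids strengthen the induction of several of them. Some are also made outside the liver: Saa3 by macrophages, adipocytes and epithelium in the mouse, Lcn2 and Ltf by mammary epithelium and in neutrophil granules, and Hp by adipocytes and myeloid cells. Serum amyloid A proteins bind lipid and circulate on high-density lipoprotein. Lipocalin-2, the product of Lcn2, binds iron-loaded bacterial siderophores, and lactoferrin, the product of Ltf, binds iron in milk and other secretions. Haptoglobin, encoded by Hp, captures free haemoglobin. Fgg encodes the gamma chain of fibrinogen, the precursor of fibrin in clots.

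In RefSeq, Saa3, Saa4, Saa1 and Saa2 lie next to each other in that order among the protein-coding genes of mouse chromosome 7. The promoter windows of the 3 SAA members are printed because the genes share a neighbourhood and a pattern over the arrays. Each window runs from 250 bases before to 50 bases after the start position used for the gene (RefSeq, build GRCm38.p6). The Saa1 window is chr7:46742931-46743230 on the minus strand, the Saa2 window chr7:46751583-46751882 on the plus strand and the Saa3 window chr7:46715627-46715926 on the minus strand. The whole genes span 46740497-46743181 (Saa1) and 46711998-46719615 (Saa3). For these genes the start position used thus lies inside the span and not at its upstream end. They are written 5′ to 3′ on the strand of the gene, with matches to the motifs named after them in capitals.
Saa1: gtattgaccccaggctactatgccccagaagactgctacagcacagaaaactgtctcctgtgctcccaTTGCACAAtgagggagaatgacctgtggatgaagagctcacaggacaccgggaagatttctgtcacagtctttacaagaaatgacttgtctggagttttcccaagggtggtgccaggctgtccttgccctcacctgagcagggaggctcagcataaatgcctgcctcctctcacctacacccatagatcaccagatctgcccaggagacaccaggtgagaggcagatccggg
Saa2: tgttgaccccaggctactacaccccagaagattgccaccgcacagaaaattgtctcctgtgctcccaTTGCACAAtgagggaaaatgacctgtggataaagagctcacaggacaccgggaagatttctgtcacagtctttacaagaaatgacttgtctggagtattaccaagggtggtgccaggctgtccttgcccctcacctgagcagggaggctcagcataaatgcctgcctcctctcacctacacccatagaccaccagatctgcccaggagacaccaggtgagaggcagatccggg
Saa3: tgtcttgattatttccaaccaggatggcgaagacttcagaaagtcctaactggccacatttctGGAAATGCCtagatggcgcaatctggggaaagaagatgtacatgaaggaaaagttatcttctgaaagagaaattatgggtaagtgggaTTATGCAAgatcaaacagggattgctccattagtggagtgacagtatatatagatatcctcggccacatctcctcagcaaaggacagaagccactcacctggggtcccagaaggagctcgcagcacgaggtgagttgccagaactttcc

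The Saa1 and Saa2 windows matched at 287 of 299 aligned bases, with 12 mismatches and 2 gap positions in a global alignment. The Saa1 and Saa3 windows had 54.2% identical positions, and Saa2 and Saa3 had 54.0%. Both strands were searched for GGNNTTTCC (NF-kappaB), TTGCNNAA (C/EBP), TTCNNNGAA (STAT) and ACANNNTGT (glucocorticoid receptor). The same C/EBP match, TTGCACAA, began 182 bases before the start used for Saa1 and 183 bases before that for Saa2. The Saa3 window held a C/EBP match at 99 bases before the start used, and an NF-kappaB match at 187 bases before it. Both lie on the opposite strand, so the window shows them as TTATGCAA and GGAAATGCC. No matches overlapped in these 3 windows. Lcn2 (chromosome 2) and Ltf (chromosome 9) also had 1 C/EBP match each, Lcn2 had 1 match to the glucocorticoid receptor letters, and the Fgg window (chromosome 3) had none of the 4 motifs. Of 32851 windows of this length in the table, 10.8% held the C/EBP letters, 5.82% those for NF-kappaB, 8.30% those for STAT and 6.85% those for the glucocorticoid receptor. A match describes letters and shows no binding.

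The arrays had been scaled to the same trimmed mean, and values were compared as log2(signal + 16) after each array was centred on its median. The highest of 27 control probe sets for bacterial transcripts read 35.3 on the PAX8PPARg RU486, 8.3 on the PAX8PPARg placebo, 18.5 on the WT RU486 and 9.6 on the WT placebo array. A signal at or below that level is called within the background range. All 8 member probe sets lay above it on all 4 arrays, and all 7 members lay above the level filter, the median of all genes, which kept 6197 genes. The filter used the mean over the 4 arrays, and Saa2 (7.84 log2) and Fgg (8.03) passed its cut of 7.79 narrowly, through their bright arrays. Saa2 was below the cut on the PAX8PPARg placebo (5.42) and WT RU486 (6.08) arrays. Fgg was below it on the PAX8PPARg RU486 (6.79) and WT RU486 (7.18) arrays. Saa1, read by 1419075_s_at, was also below the cut on the PAX8PPARg placebo (6.31) and WT RU486 (6.74) arrays. Saa3 was below it on the PAX8PPARg placebo array (5.16). The closest to background was the Saa1 probe set 1450788_at, at 13.6 on the PAX8PPARg placebo and 33.5 on the WT RU486 array. The spike-in control signal, relative to the WT placebo array, was 2.44 for PAX8PPARg RU486, 1.01 for PAX8PPARg placebo and 1.58 for WT RU486, so it was higher on both RU486 arrays, and the ratio of 3′ to 5′ probe sets of Gapdh was 3.01, 2.89, 3.33 and 2.51 over the 4 arrays. Their part in the results was not tested. As a check of the tissue, the epithelial keratin gene Krt8 read 6034.6, 4798.3, 2201 and 7929.8 on the PAX8PPARg RU486, PAX8PPARg placebo, WT RU486 and WT placebo arrays, and the adhesion gene Epcam read 7339.1, 5563.6, 479.3 and 6249.1. The epithelial signal was thus lowest on the WT RU486 array. In tissue RNA, fewer cells of a type and less RNA per cell cannot be told apart.

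Saa1 and Saa2, whose products are the main circulating forms in the mouse, were bright on the WT placebo array and dim on the WT RU486 and PAX8PPARg placebo arrays. The Saa1 probe set 1419075_s_at read 963.2 on the PAX8PPARg RU486 array, 70.8 on the PAX8PPARg placebo array, 86.5 on the WT RU486 array and 8604.2 on the WT placebo array. The second Saa1 probe set, 1450788_at, read 247, 13.6, 33.5 and 6294.9 in the same order. The Saa2 probe set 1449326_x_at read 209.1, 30.7, 48.6 and 4089.8. All 3 probe sets put the arrays in 1 order, with WT placebo highest, then PAX8PPARg RU486, then WT RU486 and PAX8PPARg placebo lowest.

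The names of these probe sets need care, since Saa1 and Saa2 are near-identical. The platform table gives 1419075_s_at to Saa1, but its target accession is a Saa2 transcript in RefSeq, as is that of 1449326_x_at. Only 1450788_at has a Saa1 accession, and the suffixes of the other probe sets mark probes that can bind several transcripts. The split between Saa1 and Saa2 is therefore uncertain. On the log2 scale the RU486 minus placebo difference was 3.63 and 3.28 for the Saa1 probe sets in PAX8PPARg and 2.40 for that of Saa2. In WT it was -6.39 and -6.99 for Saa1 and -5.99 for Saa2.

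**Figure D1:**
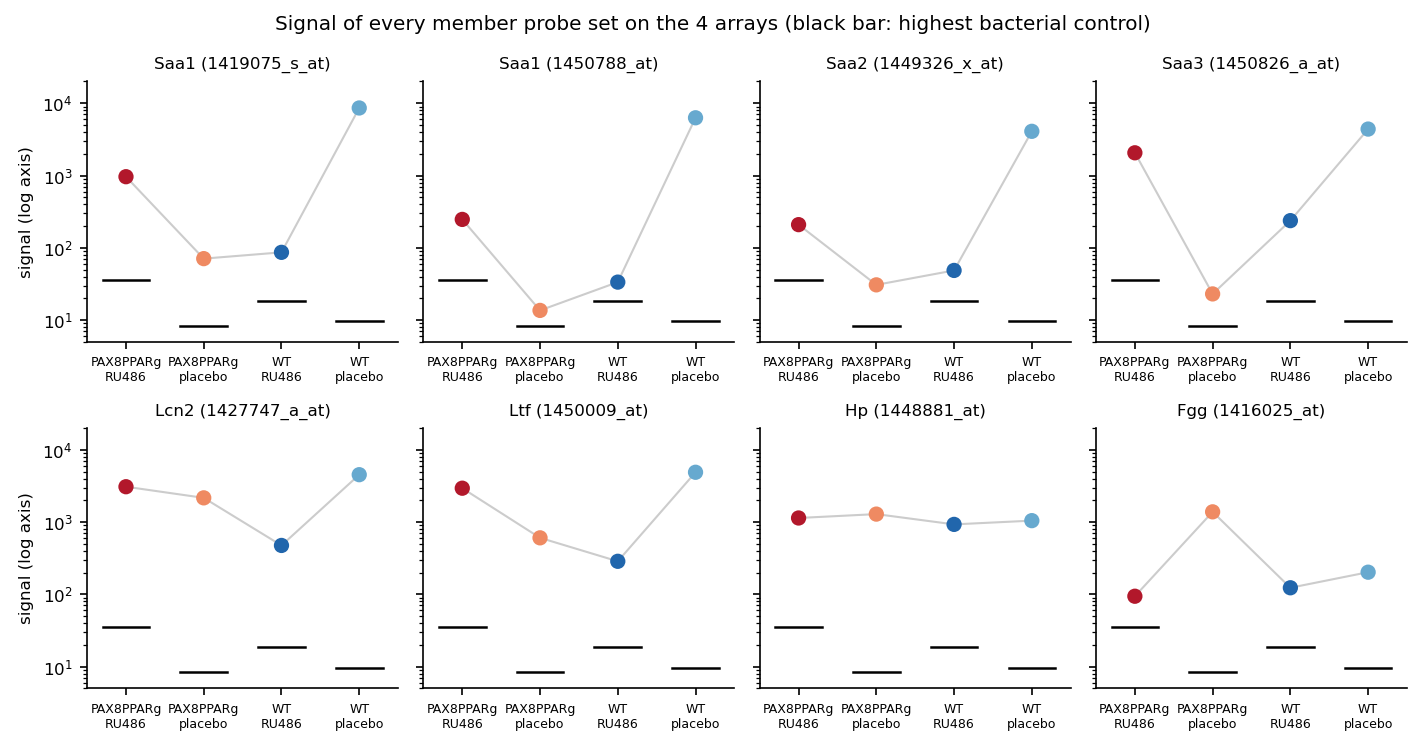
Signal (log axis) of the 8 member probe sets on the PAX8PPARg RU486, PAX8PPARg placebo, WT RU486 and WT placebo arrays, 1 point per array of 5 pooled mice, with a black bar at the highest bacterial control of that array. For the SAA probe sets the highest signal was 122 to 463 times the lowest, those of Hp stay between 927.4 and 1287.1, and Fgg is highest on the PAX8PPARg placebo array at 1383.4.

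Saa3 is the isoform that macrophages, adipocytes and epithelium can make in the mouse. Its signal was 2062.7 on the PAX8PPARg RU486 array, 23 on the PAX8PPARg placebo array, 237.6 on the WT RU486 array and 4393.4 on the WT placebo array. Saa3 had the same order of arrays as Saa1 and Saa2, but the RU486 arrays stood higher relative to the placebo arrays. Its RU486 minus placebo difference was 5.87 log2 in PAX8PPARg, where 2 of the 6197 genes above the level filter had a larger one, and -4.12 in WT. Saa3 was picked partly for the size of its differences, so this rank is no separate result. The PAX8PPARg value rests on the low placebo signal of 23. Set against the Saa1 probe set 1419075_s_at, the RU486 difference of Saa3 was greater by 2.24 log2 in PAX8PPARg and by 2.27 in WT, and these pairs share no array. Against 1450788_at the values were 2.58 and 2.87, and against Saa2 they were 3.47 and 1.87. The difference between genotypes of the RU486 difference was almost equal for both genes, at 9.99 log2 for Saa3 and 10.02 for Saa1. Saa3 was thus relatively higher than Saa1 under RU486 in both genotypes, and the values depend on which Saa1 or Saa2 probe set is taken.

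Lcn2 and Ltf are the iron-related members, and their lowest signal was that of the WT RU486 array. Lcn2 read 3079.6 on the PAX8PPARg RU486, 2159.8 on the PAX8PPARg placebo, 474.1 on the WT RU486 and 4518.9 on the WT placebo array. Ltf read 2937.1, 604.3, 286.1 and 4880.3 in the same order. Both were highest on the WT placebo array and lowest on the WT RU486 array, unlike the SAA genes, which were lowest on the PAX8PPARg placebo array.

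These 2 genes parted on the PAX8PPARg placebo array. The RU486 difference of Lcn2 in PAX8PPARg was 0.64 log2, below 2-fold, while that of Ltf was 2.38. In WT it was -3.21 for Lcn2 and -4.02 for Ltf. PAX8PPARg minus WT under placebo was -1.25 for Lcn2 and -3.17 for Ltf, a gap of -1.92 log2 for Ltf against Lcn2. Under RU486 it was 2.60 for Lcn2 and 3.23 for Ltf.

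Hp differed little between the arrays, with 1137.1 on the PAX8PPARg RU486, 1287.1 on the PAX8PPARg placebo, 927.4 on the WT RU486 and 1045.1 on the WT placebo array. Its highest signal was 1.39 times its lowest. The RU486 difference was -0.04 log2 in PAX8PPARg and -0.17 in WT. PAX8PPARg minus WT was 0.23 under RU486 and 0.11 under placebo.

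Fgg had a pattern of its own, with 94 on the PAX8PPARg RU486, 1383.4 on the PAX8PPARg placebo, 123.1 on the WT RU486 and 202.2 on the WT placebo array. Only the PAX8PPARg placebo array stood apart. The RU486 difference was -3.54 log2 in PAX8PPARg and -0.65 in WT, and PAX8PPARg minus WT was -0.40 under RU486 and 2.49 under placebo.

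**Figure D2:**
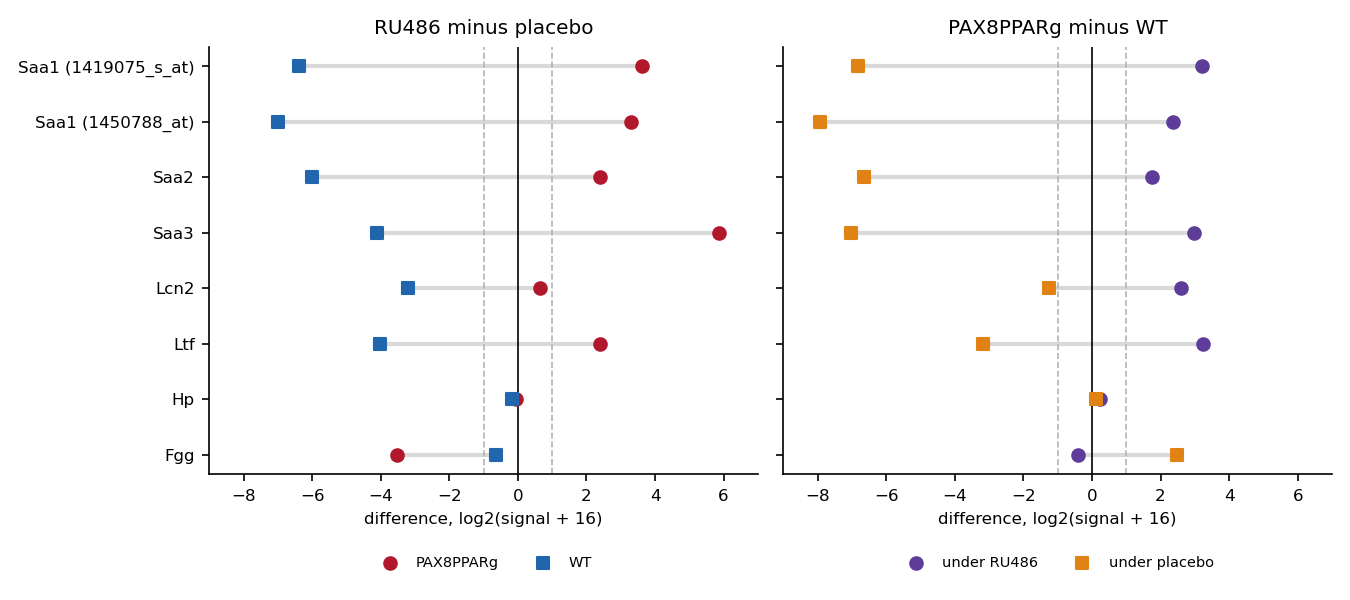
Differences in log2(signal + 16) for the 8 member probe sets. The left panel gives RU486 minus placebo in PAX8PPARg (circles) and in WT (squares), and the right panel PAX8PPARg minus WT under RU486 (circles) and under placebo (squares). Dashed lines mark 2-fold. The SAA genes and Ltf lie right of 2-fold in PAX8PPARg and left of it in WT, and Fgg and Hp do not.

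By size alone, 4 of the 7 members (Saa1, Saa2, Saa3 and Ltf) were at least 2-fold higher in the PAX8PPARg RU486 pool than in the PAX8PPARg placebo pool, and 1 (Fgg) was at least 2-fold lower. Over all genes above the level filter these shares were 5.05% and 5.1%, or 10.2% in either direction. In WT, 5 members (the same 4 and Lcn2) were at least 2-fold lower under RU486 and 0 were higher, against 8.25% and 5.5% of all genes, or 13.7% in either direction. The median difference of the members was 2.38 log2 in PAX8PPARg and -4.02 in WT, and that of all genes above the filter was 0.05 and -0.06. Saa1, Saa2, Saa3 and Ltf were at least 2-fold higher in PAX8PPARg and at least 2-fold lower in WT, which held for 1.4% of all genes. Since the members were picked with these differences known, nothing is read from the shares. Saa1 and Saa2 are counted apart here, although their probe sets may read the same transcript.

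**Figure D3:**
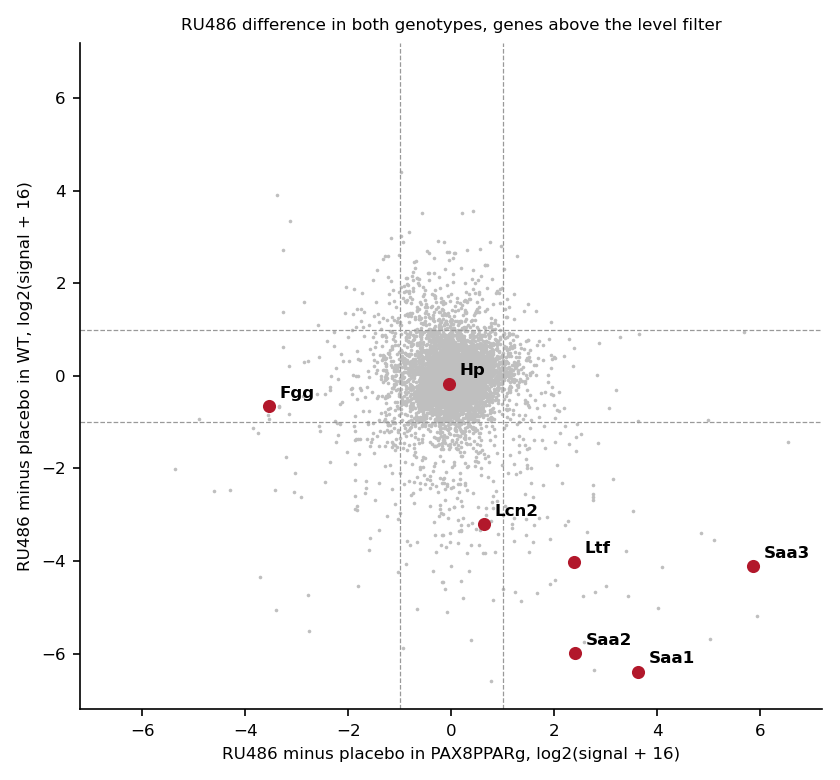
RU486 minus placebo in log2(signal + 16) in PAX8PPARg (x axis) and in WT (y axis) for the 6197 genes above the level filter, 1 grey point per gene, with the 7 members in red and dashed lines at 2-fold. The axes share no array. Saa1, Saa2, Saa3 and Ltf lie at the lower right, Lcn2 at the lower centre, Hp near 0 and Fgg at the left.

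The genotypes were also set against each other under each treatment. These differences use the same 4 arrays again and are no separate evidence. Under RU486, 5 members were at least 2-fold higher in the PAX8PPARg pool than in the WT pool and 0 were lower, against 7.23% and 10.2% of all genes, or 17.5% in either direction. The values were 3.20 log2 for Saa1, 1.74 for Saa2 and 2.98 for Saa3. Under placebo the same 5 were at least 2-fold lower in PAX8PPARg and Fgg was higher, against 4.39% and 1.89% of all genes, or 6.28% in either direction. Here the SAA genes differed most, with -6.82 for Saa1, -6.65 for Saa2 and -7.01 for Saa3. The difference between genotypes of the RU486 difference was at least 1 log2 for 5 members in the positive direction (11.7% of all genes) and for Fgg in the negative direction (10%, or 21.7% in either), with 8.39 for Saa2, 6.40 for Ltf, 3.85 for Lcn2, 0.13 for Hp and -2.89 for Fgg.

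The list of other acute phase genes had medians near 0 in both genotypes. Of 25 measured genes of a list of 30, 6 were higher by 2-fold or more under RU486 in PAX8PPARg and 4 lower (median 0.23 log2), and 0 and 3 in WT (median 0.06). Among the 6, Crp (20.5 under RU486 and 0.1 under placebo) and Itih4 (26.1 and 4.3) were within background on both PAX8PPARg arrays. Over all 12393 genes without a level filter, 10.6% were that much higher and 7.02% lower in PAX8PPARg (median 0.13), and 7.45% and 8.85% in WT (median 0.01). Lbp, which hands bacterial lipopolysaccharide to CD14, put the arrays in the same order as Lcn2 and Ltf, unlike the SAA genes. It read 764.6 on the PAX8PPARg RU486, 409.7 on the PAX8PPARg placebo, 258.2 on the WT RU486 and 2198.8 on the WT placebo array. Its RU486 difference was 1.01 log2 in PAX8PPARg and -3.01 in WT. The complement gene Cfb had -0.30 and -1.51. Il1rn, the gene of the interleukin-1 receptor antagonist, had 2.02 and 0.38, and the metallothionein gene Mt2 had 1.47 and 0.39. Saa4, Crp, Apcs, Fga and Hpx did not exceed background on any array.

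Fibrinogen has 3 chains, and their genes were not alike in signal. Fgb, the gene of the beta chain, read 87.3, 541.3, 88.6 and 70.3 on the PAX8PPARg RU486, PAX8PPARg placebo, WT RU486 and WT placebo arrays, so it was also highest on the PAX8PPARg placebo array. Fga, the gene of the alpha chain, read 9.1, 2.9, 2.6 and 6.2. The orosomucoid gene Orm1 read 26.7, 261, 16 and 37.4, and the antitrypsin gene Serpina1b read 122.6, 889.4, 44.3 and 153, both again highest under placebo in PAX8PPARg. These genes were named here after their values were seen.

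Most hepatocyte markers were near background, apart from Serpina1b and Fgb, which belong to this list. Of 16 measured, 0 reached the level filter and 5 (Ttr, Tat, Cps1, Fga and Hpx) were within the background range on all 4 arrays, and Alb, the albumin gene, read 28.7, 51.8, 2.6 and 38.8 in the same order of arrays. The summed signal of the list was 472.3, 1621.8, 297 and 382.3, and Serpina1b (889.4) and Fgb (541.3) made up most of the PAX8PPARg placebo sum. Adipocyte markers, in contrast, were highest on the PAX8PPARg placebo array for 14 of 14 genes, with summed signals of 5229.1, 38450.8, 6341.7 and 13427. All 14 were at least 2-fold lower under RU486 in PAX8PPARg (median -3.44 log2) and 5 in WT (median -0.88). The adiponectin gene Adipoq differed by -4.90 log2 and -0.93. Of 17 luminal genes, 9 were highest on the PAX8PPARg RU486, 4 on the PAX8PPARg placebo, 0 on the WT RU486 and 4 on the WT placebo array. Foxa1 was among those highest on the PAX8PPARg placebo array, with 33.6, 1146.3, 41.5 and 247. Fgg moved beside the adipocyte list, and the part of adipose or any other tissue in its values was not tested.

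The list of cytokines that induce acute phase genes, and of their signal relay, also had medians near 0. Of 24 measured genes of 27, 6 were higher by 2-fold or more and 3 lower under RU486 in PAX8PPARg (median 0.24 log2), and 2 and 1 in WT (median 0.15). Among the 6, Il6 (17.7 and 0.8), Il1a (30.3 and 4.3) and Il17a (17.5 and 0.7) were within background on both PAX8PPARg arrays. That level was 35.3 under RU486 and 8.3 under placebo, so these genes show no difference above background. The shares of all measured genes printed above for the acute phase list can be set beside the counts of every list. Il1b, the interleukin-1 beta gene, read 528.6, 114.5, 694.4 and 1126.7 on the PAX8PPARg RU486, PAX8PPARg placebo, WT RU486 and WT placebo arrays, with differences of 2.19 in PAX8PPARg and -0.68 in WT. Cebpb, which encodes a C/EBP factor, had 1.19 and -0.11. The interleukin-6 receptor genes ran the other way, with -1.14 and 1.28 for Il6ra and -1.35 and 0.86 for Il6st. Il6 itself was at most 18.6 on any array and within the background range on 3 of them. The relay genes Stat3 (-0.18 and -0.29) and Socs3 (0.64 and 0.15), and the glucocorticoid receptor gene Nr3c1 (-0.24 and 0.26), stayed within 2-fold.

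Receptors and partners of the members were read next. Of 14 measured receptor and carrier genes, 3 were at least 2-fold higher and 1 lower under RU486 in PAX8PPARg (median -0.07 log2), and 7 and 1 in WT (median 0.90). Among the 3, Ager was within background on both PAX8PPARg arrays, at 31.3 under RU486 and 3 under placebo. The genes above the level filter that differed most were Cd36, a scavenger receptor of fatty acids and lipoproteins (-3.74 in PAX8PPARg and -1.23 in WT), the leukocyte integrin gene Itgb2 (-0.44 and 2.23), Cd163, the macrophage receptor for haptoglobin bound to haemoglobin (-0.58 and 1.56), and Lrp1, an endocytic receptor (-0.16 and 1.54). Of 15 iron and heme genes, which include Lcn2, Ltf and Hp, 3 were at least 2-fold higher and 1 lower in PAX8PPARg (median 0.43), and 1 and 4 in WT (median -0.13). The transferrin receptor gene Tfrc had 1.43 and -1.49, the iron exporter gene Slc40a1 -1.54 and -1.37, the ferritin heavy chain gene Fth1 1.31 and 0.48, and the phagosomal metal transporter gene Slc11a1 -0.05 and 1.73.

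Markers of the cell types that can make the members moved on the same arrays. Among 17 luminal genes, 2 were higher by 2-fold or more and 2 lower under RU486 in PAX8PPARg (median 0.53 log2), and 0 and 16 in WT (median -3.19). The epithelial transcription factor gene Elf5 had -0.93 and -5.89, and Krt7 had 1.35 and -4.86. All 15 squamous genes were at least 2-fold higher in PAX8PPARg (median 3.40) and 14 lower in WT (median -2.77), with Krt6a at 5.02 and -5.69, although 12 of the 15 did not exceed background on the WT RU486 array, nor did 5 on the PAX8PPARg placebo array. Of 12 milk protein genes, 3 were at least 2-fold higher and 3 lower in PAX8PPARg (median 0.26), and 11 were lower in WT (median -5.08), with Wap at 2.58 and -5.75.

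The medians of the neutrophil markers had the sign of the Ltf difference in both genotypes, as did those of the luminal, squamous and milk protein lists. Among 15 of them, 9 were higher by 2-fold or more and 0 lower under RU486 in PAX8PPARg (median 1.10 log2), and 1 and 5 in WT (median -0.75). With a pseudocount of 64 in place of 16, 4 were higher in PAX8PPARg and 3 lower in WT. Their summed signal was 5629.8, 831.4, 2508.9 and 5163.1 on the PAX8PPARg RU486, PAX8PPARg placebo, WT RU486 and WT placebo arrays. S100a8, S100a9 and Mmp9 made up most of the sum on every array. S100a8 had 3.15 and -2.24 and S100a9 2.76 and -2.68, both of which are also made by keratinocytes, and the gelatinase gene Mmp9 had 3.27 and 0.84. The granule genes differed among themselves. Prtn3 read 161.1, 5.8, 28.1 and 38.9, above background on 3 arrays, with differences of 3.16 and -0.32, and Camp read 57.8, 2.4, 8 and 6.5, above background only on the PAX8PPARg RU486 array, with 2.14 and 0.09. Elane did not exceed background on any of the 4 arrays and Mpo read 18.5, 10, 8.5 and 27.1, within the background range on 2 of them. Mmp8, among the 9 genes higher in PAX8PPARg, read 18.6 under RU486 and 2.6 under placebo there, both within background. Macrophage markers ran against the members in WT, with 15 of 15 at least 2-fold higher under RU486 (median 2.08), among them Cx3cr1 at 3.51, and 1 higher and 0 lower in PAX8PPARg (median -0.04). The part of any of these cell types in the values of the members was not tested.

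**Figure D4:**
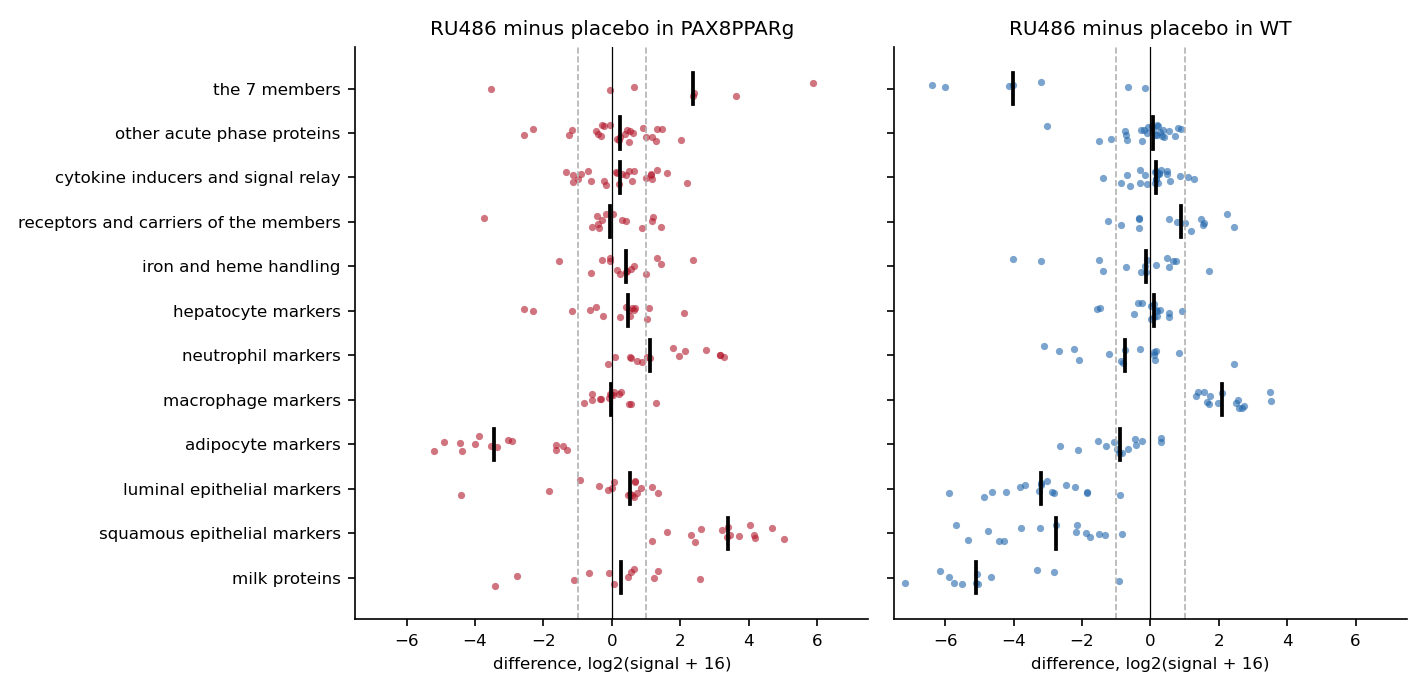
RU486 minus placebo in log2(signal + 16) in PAX8PPARg (left) and WT (right) for the 7 members and 11 gene lists, 1 point per gene and a black bar at the median, with dashed lines at 2-fold. The members have medians of 2.38 and -4.02, next to -3.44 and -0.88 for adipocyte, 0.53 and -3.19 for luminal and 3.40 and -2.77 for squamous markers.

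Genes with the most similar profile were taken as those with the smallest root mean square distance over the 4 arrays, in log2 units after each gene was set to mean 0, among 6190 other genes above the level filter. With 4 points this is a coarse measure. Saa1 lay nearest to the kallikrein gene Klk8 (0.84), the collagenase gene Mmp13 (0.94), Wap (0.99) and the folate receptor gene Folr1 (1.22). Its distance to Saa2 was 0.56. The probe sets used for Saa1 and Saa2 both have a Saa2 target accession and may read the same transcript, so this distance is no separate result. Saa2 lay nearest to Wap (0.57), Klk8 (0.95), Folr1 (1.26) and Mmp13 (1.38). Saa3 lay nearest to Mmp13 (0.48), the troponin gene Tnnt2 (1.17), the stromelysin gene Mmp10 (1.18) and Klk8 (1.26). Mmp13 read 1175.2, 5.4, 48.7 and 2356.6 on the PAX8PPARg RU486, PAX8PPARg placebo, WT RU486 and WT placebo arrays, of which 5.4 is within the background range, as is the 0.5 of Mmp10 on the PAX8PPARg placebo array. Their distances are therefore not exact.

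Lcn2 had closer neighbours, with the transcription factor gene Nfe2l3 at 0.09, then 0610040J01Rik (0.20), Bcl2l14 (0.21) and the aldolase gene Aldoc (0.24). Nfe2l3 read 938, 600.3, 118 and 1172 in the order above. Ltf lay nearest to Folr1 (0.26), the keratin gene Krt10 (0.48), S100a9 (0.49) and Klk8 (0.51), and its distance to Lcn2 was 0.75. Fgg lay nearest to Fcgbp (0.13), Cd36 (0.23), the transcriptional coactivator gene Cited1 (0.26) and Dpep1 (0.28), and Fcgbp read 268.8, 3170.7, 375.8 and 607.7. Hp lay nearest to Mcm6, Eif4enif1, Hba-a2 and Zfp638, with distances of 0.01 to 0.02, but 2332 of the 6190 genes were within 0.25 of it, against 0 for Saa1, Saa2, Saa3 and Ltf, 4 for Lcn2 and 2 for Fgg. A flat profile such as that of Hp is common on these arrays.

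**Figure D5:**
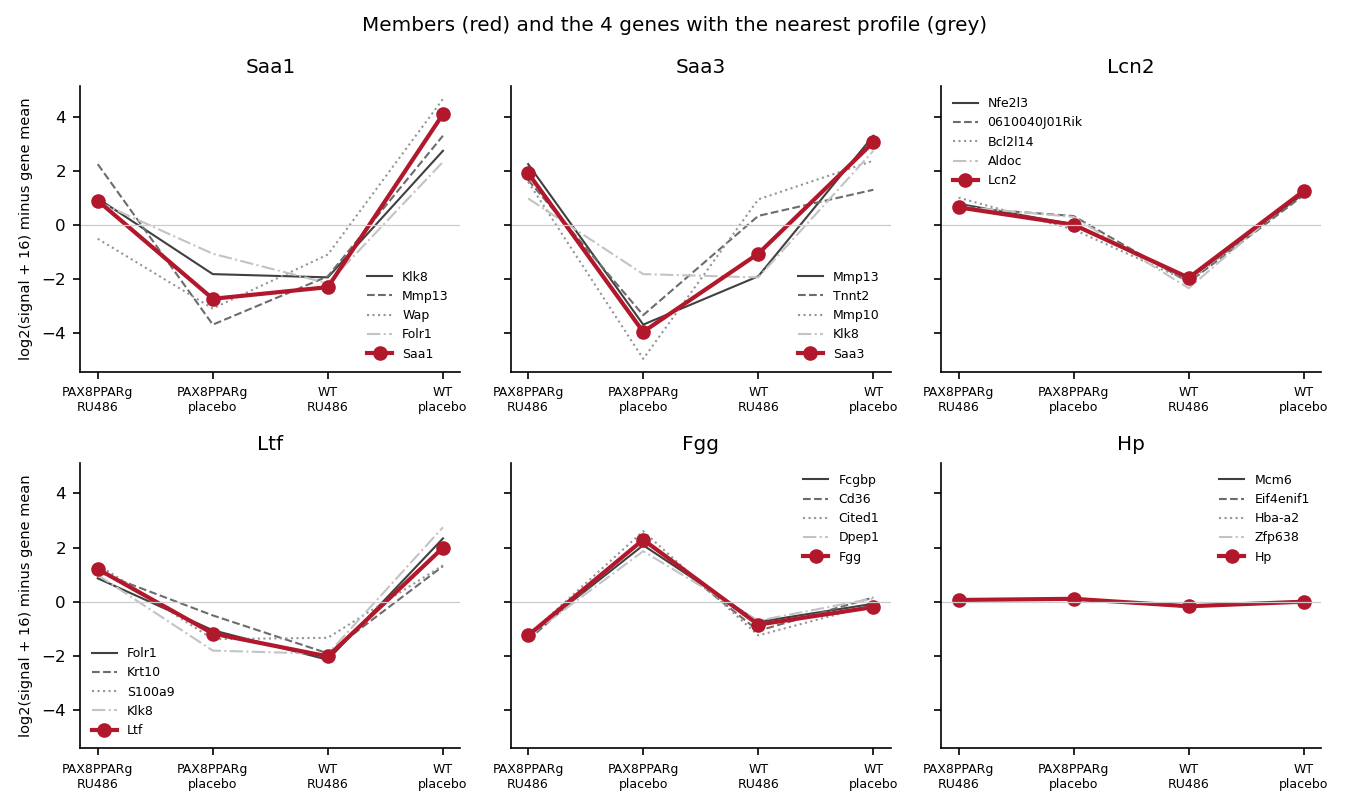
Profiles of 6 members (red) and of the 4 genes nearest to each (grey) over the 4 arrays, as log2(signal + 16) minus the gene's own mean. The neighbours of Lcn2 and Fgg follow them closely, those of Saa1 and Saa3 lie at distances of 0.48 to 1.26 log2, and the Hp panel is flat.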

How the data were processed

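The values were probe set signals, an intensity on a linear scale, used as the authors deposited them; which software made them was not given in the sources used here. Over all probe sets the trimmed mean, with 2% left out at each end, was 500.1 to 500.2 on every array. Of 22690 probe sets, 64 were controls, and 20380 of the others had exactly 1 symbol in the platform table (691 had several and 1555 none). For a gene with several probe sets, that of the highest mean log2(signal + 16) was used. The median of the non-control probe sets was subtracted from each array. Genes at or above the median level, 6197 of 12393, formed the background. Sizes were read at 2-fold. With 1 array per group there was no test, and precision is limited by the number of arrays. Gene lists, motifs and the rule for named genes (for each list the 4 genes above the filter other than members with the largest RU486 difference in either genotype, for each member the 4 nearest profiles) were written with earlier results of these data known. Outside this rule, Krt8, Epcam, Foxa1, Alb, Fga, Fgb, Orm1, Serpina1b, Il6, Stat3, Socs3, Nr3c1, Mpo, Elane, Prtn3, Camp and the genes listed as at background were named after their values were seen. Protein identity was not analysed here. The steps were tested on simulated data. Python 3.11.15, numpy 2.4.6, pandas 2.3.3, matplotlib 3.10.9 and Biopython 1.88 were used.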

Additional observations from a re-analysis of the deposited data

Results flagged for a closer look

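The RU486 difference pointed in opposite directions in the genotypes, by at least 2-fold each way, for 5 member probe sets. PAX8PPARg minus WT, it came to 10.02 and 10.28 log2 for the Saa1 probe sets 1419075_s_at and 1450788_at, 8.39 for Saa2, 9.99 for Saa3 and 6.40 for Ltf. With 1 array per group the difference was not tested, and these members were chosen with it in view.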

How the results depend on the processing

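Results were recomputed with a pseudocount of 1 or 64, no centring, quantile normalization, the mean of a gene's probe sets, only probe sets without the suffixes _s_at, _x_at and _a_at, signals raised to the background level, and no level filter. Of the recomputed counts of members, 75 stayed within 1.5 times and 5 did not. Those 5 came from the plain probe sets, which leave only Saa1, Hp, Ltf and Fgg: 2 members were then higher under RU486 in PAX8PPARg, 2 lower in WT, 2 higher in PAX8PPARg under RU486, 2 lower in PAX8PPARg under placebo and 2 higher in the difference between genotypes. Of the recomputed member differences, 213 moved by less and 52 by more than the median SD among a gene's probe sets (0.15 to 0.24 log2), and no difference of 2-fold or more changed sign. No member value could change with signals raised to the background level, since all lay above it, or without the level filter. The mean of probe sets could change only Saa1, and the plain probe sets left Ltf, Hp and Fgg as they were. Part of the 213 and of the 75 was thus fixed in advance. The difference between genotypes of Hp was -0.01 without centring, in place of 0.13. For Saa3 in PAX8PPARg the RU486 difference ranged from 4.72 to 6.57 and for Saa1 in WT from -6.99 to -5.85. The excess of Saa3 over Saa1 ranged from 1.68 to 2.68 in PAX8PPARg and from 1.96 to 2.57 in WT with 1419075_s_at, or the mean of both probe sets, for Saa1, and was 2.58 and 2.87 with 1450788_at alone. Counts in the gene lists moved more. With a pseudocount of 64, the genes higher under RU486 in PAX8PPARg were 3 in place of 6 for other acute phase proteins, 2 in place of 6 for cytokines and relay, 0 in place of 3 for receptors and carriers, 0 in place of 3 for hepatocyte and 4 in place of 9 for neutrophil markers, and those lower in WT were 9 in place of 14 for squamous, 3 in place of 5 for neutrophil and 3 in place of 5 for adipocyte markers. With signals raised to the background level, 13 other acute phase and 8 hepatocyte genes were higher in PAX8PPARg. That level was 35.3 on the PAX8PPARg RU486 array and 8.3 on the PAX8PPARg placebo array. A gene within background on both was thus at least 2-fold higher by this step alone. With a pseudocount of 1, 5 other acute phase genes were higher and 6 lower in WT, in place of 0 and 3, and 7 hepatocyte genes were higher in PAX8PPARg. With plain probe sets, 10 luminal and 7 milk protein genes were lower in WT, in place of 16 and 11. Other list counts that moved by over 1.5 times involved at most 5 genes. Without centring, the median RU486 difference of all genes above the filter in PAX8PPARg was -0.08 in place of 0.05, with 230 genes at least 2-fold higher and 414 lower in place of 313 and 316. For PAX8PPARg minus WT under placebo the split was 182 and 192 without centring and 168 and 219 with quantile normalization, in place of 117 and 272. No paired analysis was possible because each group has 1 array and the labels give no replicate numbers, and no array could be left out. Signals near the background level limit the size of the Saa1, Saa2, Saa3 and Mmp13 differences.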
